A study of Mus musculus with 12 samples.

Results

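The 40 mRNAs described here encode proteins of DNA replication and the cell cycle and were measured in adult mouse neural stem cells grown in different amounts of folate. The members were taken by gene name and cover origin licensing and the replicative helicase (9 genes), polymerases, clamp, clamp loader and Okazaki fragment enzymes (10), ribonucleotide reductase (2), G1 and S phase cyclins and kinases (7), mitotic cyclins, kinases and chromosome proteins (10) and CDK inhibitors (2). The cytosine lists named 14575 genes in all, and 39 of the 40 members were among the 7135 genes with at least 10 usable cytosines in each of the 12 libraries. Pola1, the catalytic subunit of DNA polymerase α, was not tested, because the polysome libraries listed only 4 to 14 of its cytosines against 112 to 360 in total mRNA.

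Neural stem cells were taken from the subventricular zone of wild-type male C57BL/6 mice of 6 to 8 weeks. They were grown as a monolayer for 4 days with EGF and bFGF in medium with folic acid at 1.5 μM (the LF group), 10 μM (MF) or 80 μM (HF), so every group received folic acid and none was folate-free. RNA bisulfite sequencing (RNA BS-seq) was done on poly(A) RNA of whole cells (LF, MF, HF) and of the pooled gradient fractions with more than 3 ribosomes, after cycloheximide (pLF, pMF, pHF), with 2 replicates in each of the 6 groups. The study's methods call the replicates biological, and the sources used here do not say whether they came from different animals.

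Cells that prepare to divide load the MCM helicase onto origins with Cdc6 and Cdt1. They then fire these origins under cyclin-dependent kinases and copy the genome with polymerases tethered by the PCNA clamp. D-type cyclins with Cdk4 or Cdk6 drive entry into S phase downstream of growth factors, p21 (Cdkn1a) and p27 (Cdkn1b) restrain these kinases, and a later wave of B cyclins, Aurora and Polo kinases carries cells through mitosis. Folate supplies one-carbon units for thymidylate and purines, the precursors that DNA copying uses. An mRNA on polysomes is one bound by several ribosomes, and 5-methylcytosine (m5C) in an mRNA is read as a cytosine that bisulfite leaves unconverted.

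Bulk libraries cannot tell fewer cycling cells from less mRNA per cell. At the positions of the study's own site list, most read counts equalled the deposited counts in 10 libraries (54.0% to 71.1% of sites) and none did in either HF library (0 of 93 and 0 of 88). The 2 HF libraries are therefore called labelled HF throughout, comparisons with them are given apart, and the main counts of calls pooled over the 3 folate levels are also given with LF, MF, pLF and pMF alone. In pHF replicate 2 the median coverage was 920 and 38353 cytosines exceeded a level of 0.9, against 335 to 605 and 1102 to 3465 elsewhere. The labelled HF libraries also held 27353 and 21195 variant positions, against 4734 to 7899 in 8 other libraries, 11495 in pLF replicate 2 and 18155 in pHF replicate 2. Enough cytosines for a test were listed for 6 of 8 neural stem cell, 2 of 6 neuron, 1 of 5 astrocyte and 1 of 6 oligodendrocyte lineage markers. The same held for 1 of 5 microglial, 3 of 6 fibroblast or pericyte and 0 of 4 endothelial markers.

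These quantities were read from each library. The first is the median read coverage over a gene's listed cytosines with a level under 0.05. It is divided by the same value of the library's median gene, so that 1 is the typical gene. It is not summed over the gene's length, though which stretch of a long mRNA is listed enters the median. It is a depth per position and not a count of mRNA molecules, and it only reads positions where at least 1 of 10 or more reads stayed unconverted. The second is the m5C level, the share of reads left unconverted at a cytosine.

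Most of the 39 mRNAs were covered more deeply than the typical gene. Their median was 2.21 and 2.46 times the typical gene in LF, 2.87 and 2.52 (MF), 1.71 and 1.50 (labelled HF), 1.69 and 1.81 (pLF), 1.86 and 1.46 (pMF), and 1.51 and 2.21 (pHF). By the median over all 12 libraries the order ran from Cdk4, Ccnd1 and Ccnd2, the kinase and cyclins of G1, down to Cdc6, Cdk6 and Pole.

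Cdk4 had the deepest coverage, at 9.88 and 11.7 (LF), 10.3 and 10.8 (MF), 8.59 and 5.96 (labelled HF), 16.3 and 21.5 (pLF), 18.3 and 15.4 (pMF), and 16.6 and 18.9 (pHF) times the typical gene. Ccnd1 (cyclin D1) stood at 11.3 and 11.8 (LF), 12.3 and 11.1 (MF), 6.32 and 6.80 (labelled HF), 11.8 and 15.6 (pLF), 15.3 and 12.7 (pMF), and 12.9 and 14.5 (pHF). These ranges overlapped (5.96 to 21.5 and 6.32 to 15.6 over the 12 libraries), so the order of the top pair is not resolved. Ccnd2 (cyclin D2) followed at 9.87 and 9.88 (LF), 11.1 and 10.9 (MF), 11.6 and 11.0 (labelled HF), 5.27 and 6.40 (pLF), 6.71 and 6.18 (pMF), and 6.57 and 7.22 (pHF). Its total mRNA values spanned 9.87 to 11.6, within the Ccnd1 range, and its polysome values spanned 5.27 to 7.22, below every Ccnd1 polysome value.

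At the other end, Cdc6, which loads the helicase, stood at 0.588 and 0.698 (LF), 0.928 and 0.901 (MF), 0.143 and 0.171 (labelled HF), 0.509 and 0.715 (pLF), 0.0822 and 0.578 (pMF), and 0.668 and 0.472 (pHF). Cdk6 stood at 0.493 and 0.320 (LF), 0.446 and 0.248 (MF), 0.210 and 0.219 (labelled HF), 0.789 and 0.234 (pLF), 0.952 and 0.776 (pMF), and 0.261 and 0.799 (pHF). Pole, the catalytic subunit of the leading-strand polymerase, had the lowest median over the 12 libraries, at 0.605 and 0.608 (LF), 0.745 and 0.715 (MF), 0.445 and 0.710 (labelled HF), 0.137 and 0.149 (pLF), 0.160 and 0.0942 (pMF), and 0.160 and 0.166 (pHF). In total mRNA alone Cdk6 (0.210 to 0.493) lay lower than Pole (0.445 to 0.745), though these ranges met, and in polysomes the single lowest value was that of Cdc6. The Cdc6 and Cdk6 ranges overlapped each other and that of Pole in total mRNA.

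**Figure D1:**
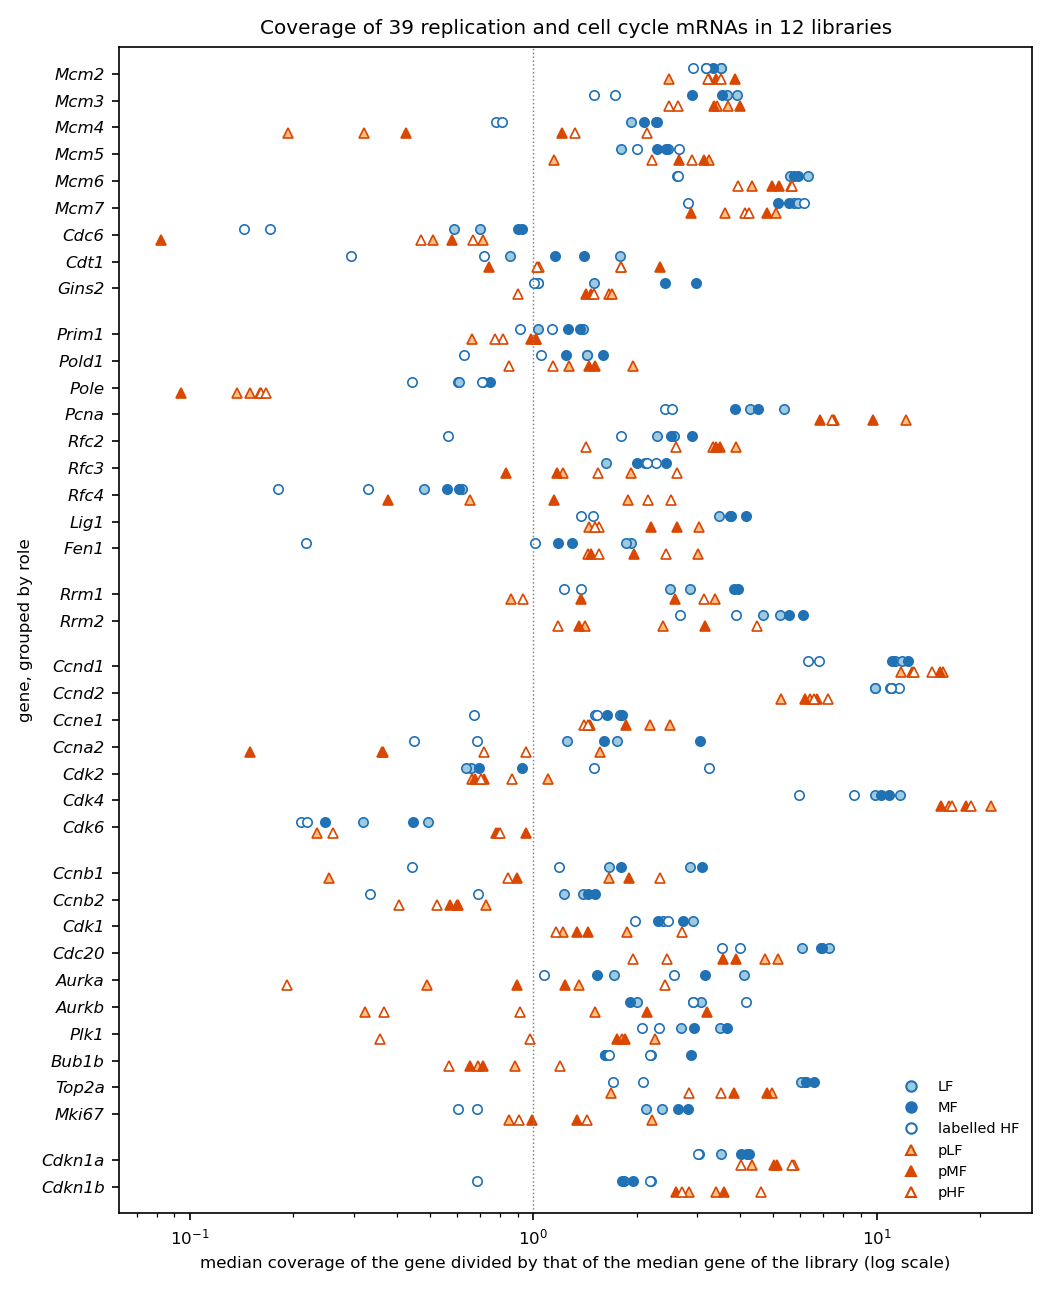
Median coverage of 39 members (rows, grouped by role) divided by that of the library's median gene, on a log axis; circles are the 6 total mRNA libraries and triangles the 6 polysome libraries, 1 point a library. Cdk4, Pcna and Cdkn1b have every triangle right of every circle, whereas Pole, Bub1b and Ccnd2 have every triangle left of every circle.

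Polysome and total mRNA were compared first over the 3 folate levels (6 against 6 libraries, limma, Benjamini-Hochberg over 7135 genes). Of the 39 members, 6 were higher and 10 lower in polysomes, and among all genes 18.8% were called higher and 14.7% lower. The member median difference was -0.32 on the log2 scale, against 0.04 for all genes, and 15 of 39 differences were above 0. Under quantile normalization in place of centring the split was 3 higher and 15 lower (16.9% and 16.6% of all genes), and by unconverted reads it was 4 and 12 in edgeR (23.2% and 24.2%). The 6 polysome libraries lay entirely above the 6 total libraries for 3 members (Cdk4, Cdkn1b and Pcna) and entirely below for 3 (Bub1b, Ccnd2 and Pole), against 8.34% and 5.65% of all genes. With LF, MF, pLF and pMF alone, a fit added after seeing the data, 3 members were higher and 10 lower (18.1% and 13.5% of all genes). In that fit 12 of the 16 calls were made again: Pole (-2.33), Mcm4 (-2.34), Ccna2 (-2.11), Bub1b (-1.46), Rrm2 (-1.46), Ccnb2 (-1.16), Ccnd2 (-0.77), Plk1 (-0.74) and Cdc20 (-0.66) were lower, and Pcna (0.99), Cdk4 (0.73) and Cdkn1b (0.66) higher. Of the rest, Aurkb (-0.84), Rfc4 (0.60), Ccnd1 (0.24) and Cdkn1a (0.34) did not pass, and Cdk1 (-0.83) was called lower in addition. Leaving out 1 library in turn gave 11 to 19 called members, the most without pLF replicate 2 (6 higher, 13 lower) and 16 without pHF replicate 2. The shares of all genes in these fits are not given here, so the range says only how far the count moved.

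Within the replication machinery Pole and Mcm4 were lower in polysomes, and the clamp Pcna and its loader subunit Rfc4 higher. In polysomes Pole rested on 10 to 101 cytosines at a median coverage of 29 to 113, against 177 to 384 cytosines in total mRNA. Pole, whose values are given above, was lower in polysomes (-2.15 ± 0.23, adjusted p = 1.77e-04; differences are log2 ± SE) and lower in each folate level, with every polysome value under every total value. Mcm4, one of the 6 subunits of the helicase ring, stood at 2.30 and 1.93 (LF), 2.28 and 2.10 (MF), 0.777 and 0.811 (labelled HF), 0.193 and 0.321 (pLF), 1.22 and 0.425 (pMF), and 2.15 and 1.32 (pHF) and was also lower (-1.20 ± 0.29, adjusted p = 0.0107). Its polysome values fell under the total ones in LF and MF and not in HF, where the pHF values exceeded the labelled HF ones. The other 5 ring subunits lay between -0.32 (Mcm7) and 0.25 (Mcm3), and none of them passed the test.

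Pcna, the sliding clamp, was higher in polysomes (1.19 ± 0.16, adjusted p = 6.25e-04), at 4.27 and 5.37 (LF), 3.87 and 4.52 (MF), 2.42 and 2.53 (labelled HF), 7.54 and 12.2 (pLF), 9.79 and 6.86 (pMF), and 7.48 and 7.41 (pHF). Every polysome value exceeded every total value. Over the cytosines listed in all 12 libraries its difference shrank to 0.35, and it was -0.087 for pLF against LF and -0.21 for pMF against MF there. Rfc4, a subunit of the loader that places the clamp, was higher too (1.48 ± 0.36, adjusted p = 0.0113), at 0.620 and 0.482 (LF), 0.607 and 0.562 (MF), 0.330 and 0.180 (labelled HF), 1.88 and 0.653 (pLF), 1.15 and 0.377 (pMF), and 2.15 and 2.51 (pHF). Only pMF replicate 2 lay inside the total mRNA range, the gene rested on 14 to 136 cytosines, and with LF, MF, pLF and pMF alone its difference was 0.60 and did not pass. Rfc2 (0.62), Rfc3 (-0.52), Fen1 (0.89), Lig1 (-0.47), Pold1 (0.16) and Prim1 (-0.43) did not pass the test.

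Of the enzyme that makes deoxyribonucleotides, the regulatory subunit Rrm2 was lower in polysomes (-1.13 ± 0.34, adjusted p = 0.0278), at 5.23 and 4.67 (LF), 5.54 and 6.10 (MF), 3.88 and 2.68 (labelled HF), 2.38 and 1.42 (pLF), 3.17 and 1.36 (pMF), and 1.18 and 4.48 (pHF). Of the 6 polysome values, pMF replicate 1 and pHF replicate 2 lay inside the total mRNA range, and the call was lost in 7 of 12 fits that left out 1 library. The large subunit Rrm1 had a difference of -0.43 and did not pass.

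The G1 and S phase cyclins and kinases split. Cdk4 was higher in polysomes (0.93 ± 0.13, adjusted p = 8.14e-04) without overlap, and Ccnd2 was lower (-0.75 ± 0.11, adjusted p = 7.43e-04) without overlap. Ccnd2 was also called lower at each folate level, and Cdk4 higher in pLF and pHF. At cytosines listed in all 12 libraries Cdk4 had a difference of 0.12 and did not pass. Ccnd1 was called higher (0.51 ± 0.11, adjusted p = 0.00727), and 11.8 in pLF replicate 1 lay inside the total range. At cytosines listed in all 12 libraries Ccnd1 was instead lower (-0.44) and passed the test in that direction (42.6% of 850 genes were called lower there and 36.4% higher), as it did by unconverted reads (-0.27, edgeR, where the reads that stayed cytosine are summed over a gene). The cause of the change of sign was not tested. Ccna2, the cyclin of S phase and mitotic entry, was lower (-1.22 ± 0.40, adjusted p = 0.0397), at 1.25 and 1.76 (LF), 3.07 and 1.60 (MF), 0.686 and 0.448 (labelled HF), 1.56 and 0.364 (pLF), 0.363 and 0.149 (pMF), and 0.720 and 0.952 (pHF). Its pLF and pHF values reached into the total range, and the call was lost in 9 of 12 fits that left out 1 library. Cdk2 (-0.43), Ccne1 (0.31) and Cdk6 (0.86) did not pass.

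The mitotic mRNAs all had differences in coverage below 0 in polysomes over the 3 folate levels, while by unconverted reads those of Ccnb2 and Cdk1 lay above 0. Of 10 tested, 5 were lower and none higher, with a median of -0.75 on the log2 scale (14.7% of all genes were lower and 18.8% higher). By folate level 0 of the 10 were called in LF, 2 in MF and 3 in HF, all lower (5.33%, 5.09% and 5.79% of all genes were lower there), and 3 of the 10 differences between pHF and labelled HF lay above 0. With LF, MF, pLF and pMF alone 5 of the 10 were lower and none higher. Bub1b, a kinase of the spindle checkpoint, was lower without overlap (-1.38 ± 0.25, adjusted p = 0.00275), at 2.21 and 1.61 (LF), 2.87 and 1.61 (MF), 2.18 and 1.66 (labelled HF), 0.885 and 0.690 (pLF), 0.715 and 0.653 (pMF), and 0.567 and 1.20 (pHF). Plk1, the Polo-like kinase of mitotic entry, was lower (-1.12 ± 0.25, adjusted p = 0.00690), at 2.70 and 3.51 (LF), 3.66 and 2.95 (MF), 2.32 and 2.07 (labelled HF), 2.26 and 1.81 (pLF), 1.75 and 1.85 (pMF), and 0.357 and 0.979 (pHF). The value of pLF replicate 1 lay inside the total mRNA range.

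Aurkb, the kinase of the chromosomal passenger complex, was lower (-1.42 ± 0.39, adjusted p = 0.0196), at 2.00 and 3.09 (LF), 1.92 and 2.92 (MF), 2.92 and 4.18 (labelled HF), 1.51 and 0.324 (pLF), 3.21 and 2.15 (pMF), and 0.366 and 0.913 (pHF). Its pMF values lay inside the total range, while both pHF values lay far below labelled HF. Ccnb2 (cyclin B2; -0.79 ± 0.23, adjusted p = 0.0255) and Cdc20, the activator of the anaphase-promoting complex (-0.70 ± 0.13, adjusted p = 0.00258), made up the 5. Ccnb2 had the opposite sign by unconverted reads (0.44, edgeR), and its call was lost in 6 of 12 fits that left out 1 library. Aurka (-1.35), Cdk1 (-0.66), Ccnb1 (-0.55), Mki67 (-0.37) and Top2a (-0.30) did not pass. By unconverted reads Mki67 and Top2a were lower and did pass (-4.43 and -1.88).

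Both CDK inhibitors were called higher in polysomes. Cdkn1b stood at 1.84 and 2.20 (LF), 1.95 and 1.81 (MF), 2.18 and 0.684 (labelled HF), 3.40 and 2.84 (pLF), 2.60 and 3.58 (pMF), and 4.60 and 2.71 (pHF) and did not overlap (0.95 ± 0.28, adjusted p = 0.0262). By unconverted reads its difference was -8.4e-04 (edgeR), and the call was lost in 6 of 12 fits that left out 1 library. Cdkn1a had a difference of 0.45, and of -0.49 at the cytosines listed in all 12 libraries, and passed the test both times, in opposite directions. The call of Cdkn1a as higher was lost in 10 of 12 fits that left out 1 library.

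A wider list of 72 replication and cell cycle genes outside the members, 48 of them tested, gave 2 higher and 12 lower in polysomes, where 18.8% and 14.7% of all genes were so called, and its median was -0.19. With LF, MF, pLF and pMF alone 3 were higher and 11 lower (18.1% and 13.5% of all genes). Between pHF and labelled HF 2 were higher and 2 lower, no more than the 7.22% and 5.79% of all genes, with 26 of 48 differences above 0 and a median of 0.10. The largest differences were those of Cenpf (-2.17), Cdc25a (-1.86), Ccnf (-1.83), Prc1 (-1.55) and Orc6 (-1.22), all lower. Cenpf and Prc1 act at kinetochores and the central spindle, Cdc25a regulates cyclin-dependent kinases, and Orc6 belongs to the origin recognition complex. Of its 19 mitotic genes 6 were lower and none higher, and 7 differences lay above 0, and with LF, MF, pLF and pMF alone 7 were lower and none higher. Between pHF and labelled HF 1 of the 19 was higher and 2 lower, against the same shares of all genes, 11 differences lay above 0, and the median was 0.17.

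**Figure D2:**
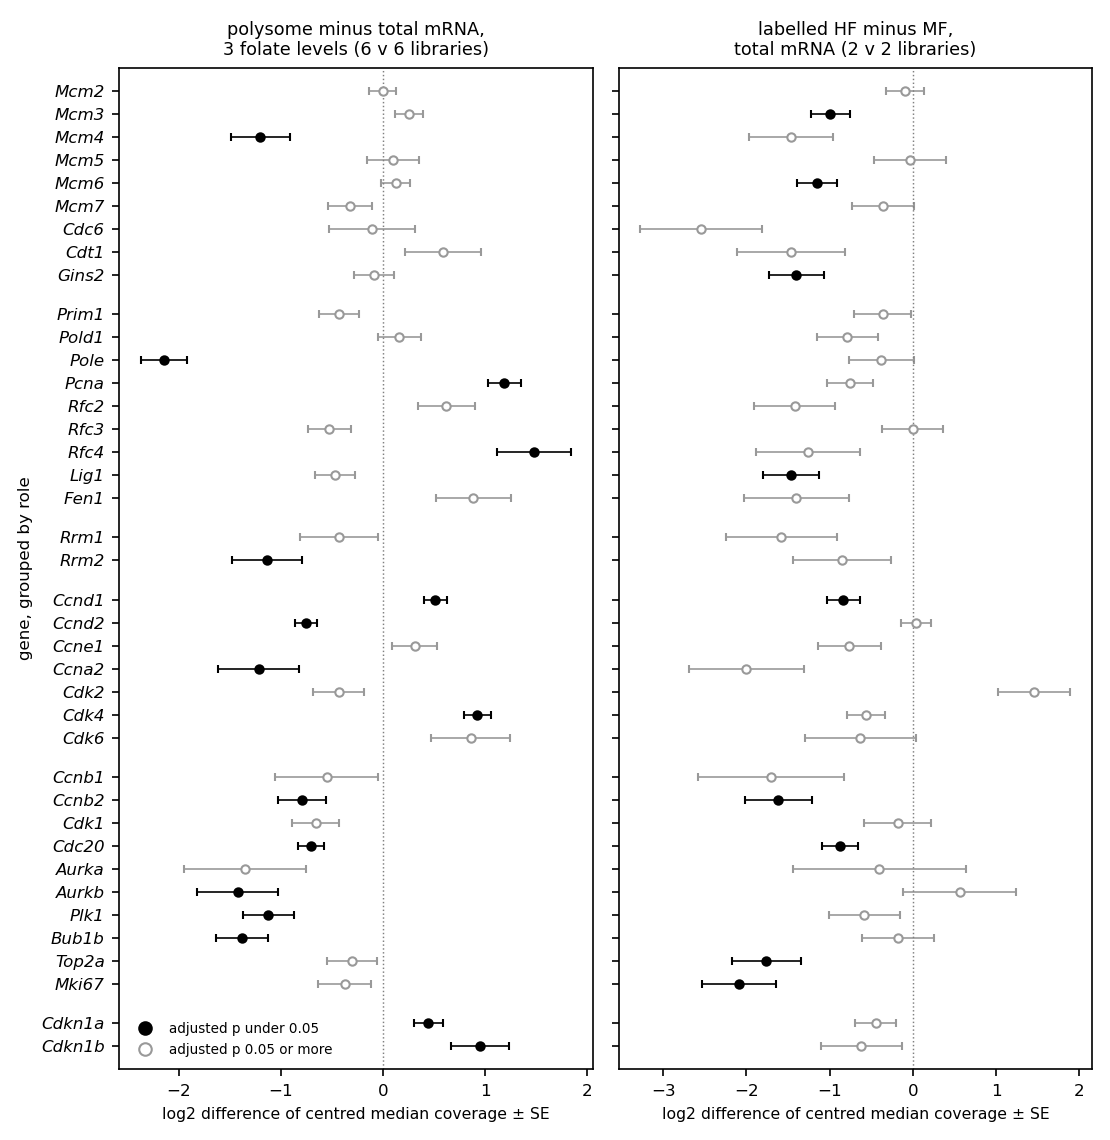
Log2 differences of centred median coverage with SE for 39 members, polysome minus total mRNA over 3 folate levels (left) and labelled HF minus MF (right); black points passed an adjusted p of 0.05. On the left the 10 mitotic members all lie below 0, and on the right 36 of 39 members lie below 0.

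Each folate level was then compared by itself, with 2 against 2 libraries in a fit that shares its spread over all 12. In LF, 2 members were higher and 3 lower (7.99% and 5.33% of all genes): Pcna (1.00) and Cdk4 (0.80) were higher, and Mcm4 (-3.08), Pole (-2.08) and Ccnd2 (-0.77) lower. No member was called by limma when the LF and pLF libraries were fitted alone (8 at an unadjusted p under 0.05), while edgeR called 10 and DESeq2 12 on unconverted reads of all libraries, where 22.2% and 27.8% of all genes were called. In MF, 1 member was higher and 5 lower (7.36% and 5.09% of all genes). Pcna (0.97) was higher, and Ccna2 (-3.25), Pole (-2.57), Bub1b (-1.66), Cdc20 (-0.89) and Ccnd2 (-0.77) were lower. Quantile normalization gave 0 members higher and 6 lower in LF (6.12% and 6.19% of all genes) and 0 higher and 9 lower in MF (7.55% and 7.12%).

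Between pHF and labelled HF, 5 members were higher and 6 lower (7.22% and 5.79% of all genes), and 1 was called when those libraries were fitted alone. Higher were Rfc4 (3.25), Pcna (1.59), Cdk4 (1.31), Ccnd1 (1.06) and Mcm6 (0.85). Lower were Aurkb (-2.60), Plk1 (-1.89), Pole (-1.78), Cdk2 (-1.50), Cdc20 (-0.78) and Ccnd2 (-0.71). By unconverted reads the split was 0 higher and 10 lower in edgeR (10.8% and 12.2% of all genes) and 1 and 11 in DESeq2 (14.7% and 14.2%). The member median of 0.40 turned sign as well, to -0.18 (edgeR) and -0.13 (DESeq2) by unconverted reads and to -0.04 over the 13 members with cytosines listed in all 12 libraries. In LF and MF it was -0.31 and -0.53 by coverage, and -0.26 and -0.32 by unconverted reads in edgeR. The change of the polysome to total difference from MF to the libraries labelled HF and pHF was tested in a fit added after seeing the data. Of the 39 members 32 had a positive change, with a median of 0.64 against -0.02 for all genes. None passed (limma, no other tool was run), where 0.308% of all genes were higher and 0.463% lower. At an unadjusted p under 0.05 there were 10 members. For counts at an unadjusted p, here and elsewhere in this report, the share of all genes at that threshold is not given. Nothing is read from such counts. From MF to LF no member's change passed either, where 0.0140% of all genes were higher (limma, 2 at an unadjusted p under 0.05, and 0 called by edgeR and DESeq2 on unconverted reads).

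The stretch of each mRNA that the lists covered differed between the fractions. In 29 members longer than 2000 exonic bases, the share of listed cytosines in the last 1000 exonic bases had a median of 23.8% in total mRNA and 31.6% in polysomes, and over 4992 genes 15.8% and 26.7%. The share was higher in polysomes for 5 members and lower for 1, where 15.1% of all genes were higher and 1.02% lower (limma on the log odds, a test added after seeing the data). With a pseudocount of 5 in place of 0.5 the share was higher for 6 members and lower for 0 (23.8% and 0.461% of all genes). With LF, MF, pLF and pMF alone it was higher for 3 members and lower for 1, and higher for 4.99% and lower for 0.461% of all genes. Coverage medians of such genes therefore compare partly different ends of the mRNA.

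Mki67, the proliferation antigen, had the widest gap. Its share was 11.0% and 10.4% (LF), 10.4% and 9.62% (MF), 7.17% and 11.3% (labelled HF), 75.6% and 95.1% (pLF), 86.4% and 88.0% (pMF), and 81.1% and 86.5% (pHF). Total mRNA listed 1276 to 1554 Mki67 cytosines and polysomes 22 to 86. Top2a, the topoisomerase that untangles replicated DNA, had means of 22.4% and 55.3% without overlap. Mcm3 rose from a mean of 30.2% to 51.2% without overlap.

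For Cdk6 (5.03% and 37.4%) and Pole (3.05% and 27.9%) the means stood apart and single polysome libraries reached the total range or nearly so. Cdk1 went the other way, from a mean of 3.99% to 0, and its annotated end was listed above 3.20% only in MF replicate 1 (19.5%). Its share was 0 in both labelled HF libraries too. The Cdk1 call was lost with the larger pseudocount and in most fits that left out 1 library. Gins2, at 0 in all 12 libraries, still had a log2 odds difference of 0.85, which did not pass, so shares near 0 depend on the pseudocount. Where a median was taken within the last 1000 exonic bases alone, Pcna stood at 0.10, Rfc4 at -0.047, Mcm4 at -0.33 and Cdk4 at 2.26 between polysome and total mRNA, and of these 4 only Cdk4 passed.

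**Figure D3:**
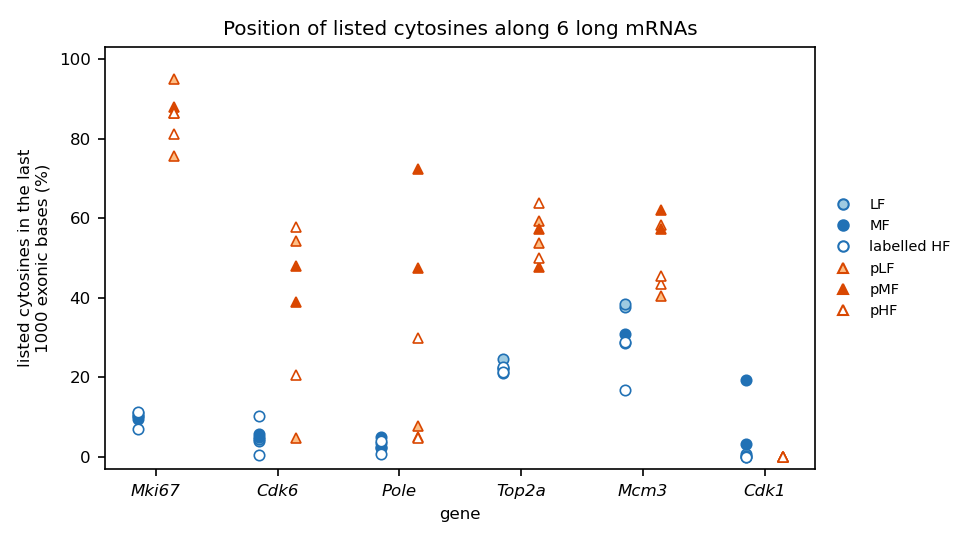
Share of listed cytosines that lie in the last 1000 exonic bases of 6 members whose share differed between polysome and total mRNA; 1 point a library. Mki67 moves from 7.17% to 11.3% in total mRNA to 75.6% to 95.1% in polysomes, and Top2a and Mcm3 have no overlap.

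Cytosines outside the exons of every annotated transcript were looked at in 786 genes where they made up at least 2% of the listed cytosines on average over the 12 libraries. Their median share was 7.21% in total mRNA and 0 in polysomes, so such genes entered mostly through total mRNA, and the 5 members among them did so too. Limma called 80.9% of the 786 lower and 1.65% higher in polysomes, and the 5 members lower (79.3%, 1.53% and 4 members with LF, MF, pLF and pMF alone). As the choice of genes favoured that direction, nothing is read from these calls, and the shares are a description. Ccnd1 held 22.6% and 16.5% of its listed cytosines outside exons in LF, 17.3% and 22.7% (MF) and 15.8% and 6.54% (labelled HF), against 0 to 2.30% in polysomes. Cdkn1a held 6.89% to 14.7% in total mRNA and none in any polysome library. Pcna held 20.7% in LF replicate 1 and 0 to 2.84% in the other total libraries, Ccnb1 17.7% in MF replicate 2 and 0.275% to 2.68% in the others, and Prim1 13.5% in LF replicate 1 and 0 in both labelled HF libraries. None of these 3 had any in the polysome lists by this definition. Restricted to exonic cytosines, the differences of Ccnd1 (0.23) and Cdkn1a (0.27) no longer passed.

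The comparisons between folate levels share the MF or pMF libraries as controls. In simulated data the test of LF against MF recovered 4.8% of genes changed by a log2 of 1 and 42.6% of those changed by 2. A comparison without calls therefore does not show that nothing changed. Between LF and MF no member of 39 passed, nor did any of the 7135 genes (limma, 1 member at an unadjusted p under 0.05, and 0 members by edgeR and DESeq2 on unconverted reads). The member median was -0.10. None of the values named next passed the test. The 3 largest differences among members whose 4 libraries did not overlap were those of Gins2, Fen1 and Rrm1. Gins2, a subunit of the GINS complex of the active helicase, stood at 1.50 and 1.03 (LF), 2.99 and 2.42 (MF), 1.03 and 1.01 (labelled HF), 1.66 and 1.69 (pLF), 1.47 and 1.43 (pMF), and 1.51 and 0.904 (pHF), for a difference of -1.11 ± 0.33. Fen1, which trims flaps of Okazaki fragments, stood at 1.93 and 1.86 (LF), 1.18 and 1.30 (MF), 1.01 and 0.218 (labelled HF), 3.02 and 1.44 (pLF), 1.47 and 1.96 (pMF), and 2.43 and 1.56 (pHF) (0.61 ± 0.63). Rrm1 stood at 2.49 and 2.87 (LF), 3.84 and 3.93 (MF), 1.37 and 1.23 (labelled HF), 3.38 and 0.863 (pLF), 1.38 and 2.59 (pMF), and 0.930 and 3.14 (pHF) (-0.54 ± 0.67). By unconverted reads all 3 differences had the opposite sign (Gins2 0.58, Fen1 -0.14 and Rrm1 0.046, edgeR).

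On polysomes, no member passed for pLF against pMF or for pHF against pMF, and 0.0841% of all genes were higher in each, with 0.0841% and 0 lower (limma, 3 and 7 members at an unadjusted p under 0.05, and 0 members by edgeR and DESeq2). Aurkb had values of 1.51 and 0.324 (pLF), 3.21 and 2.15 (pMF), and 0.366 and 0.913 (pHF), with differences from pMF of -1.91 ± 0.68 and -2.18 ± 0.68. Ccna2 had differences of 1.69 and 1.83 from pMF, Mcm4 -1.53 in pLF and Rfc4 1.82 in pHF. By unconverted reads Aurkb had 1.20 and 0.51, and Rfc4 -1.43, each of the opposite sign. The replicates of these 4 genes differed widely, as in pLF where Aurkb was 1.51 in one library and 0.324 in the other.

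Labelled HF stood apart from MF in the direction of lower coverage. Of 39 members 9 were lower and none higher, where 2.82% of all genes were lower and 3.55% higher, and 36 of 39 differences lay below 0 with a median of -0.79. By role, 3 of 9 licensing and helicase genes, 1 of 9 polymerase and clamp genes, 1 of 7 G1 and S phase genes and 4 of 10 mitotic genes were lower. Mki67 had the largest called difference (-2.09 ± 0.45, adjusted p = 0.0266), at 2.37 and 2.13 (LF), 2.82 and 2.63 (MF), 0.603 and 0.684 (labelled HF), 0.849 and 2.22 (pLF), 1.34 and 0.994 (pMF), and 0.908 and 1.43 (pHF). Top2a was lower as well (-1.76 ± 0.42, adjusted p = 0.0387), at 6.20 and 6.02 (LF), 6.24 and 6.55 (MF), 1.71 and 2.09 (labelled HF), 1.69 and 4.95 (pLF), 4.81 and 3.84 (pMF), and 2.84 and 3.53 (pHF). For both genes the labelled HF values lay under all 4 other total mRNA values.

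Ccnb2 was lower (-1.62 ± 0.40, adjusted p = 0.0445), at 1.23 and 1.39 (LF), 1.44 and 1.51 (MF), 0.335 and 0.692 (labelled HF), 0.601 and 0.727 (pLF), 0.571 and 0.604 (pMF), and 0.405 and 0.525 (pHF). Lig1, the ligase that joins Okazaki fragments, was lower (-1.46 ± 0.34, adjusted p = 0.0348), at 3.47 and 3.73 (LF), 4.17 and 3.76 (MF), 1.38 and 1.49 (labelled HF), 1.45 and 3.03 (pLF), 2.62 and 2.21 (pMF), and 1.55 and 1.51 (pHF). Gins2, with values above, was lower (-1.40 ± 0.33, adjusted p = 0.0392), yet the labelled HF values of 1.03 and 1.01 matched the 1.03 of LF replicate 2. Mcm6 (-1.15), Mcm3 (-0.99), Cdc20 (-0.88) and Ccnd1 (-0.84) completed the 9. From the wider list 5 of 48 were lower and none higher, where 2.82% and 3.55% of all genes were, led by Ube2c (-2.27), Tipin (-1.80), Dut (-1.28), Gmnn (-1.27) and Cdca8 (-1.13).

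These calls were weak against some of the other choices. None was made when any 1 LF or MF library was left out, and by unconverted reads edgeR called 1 member higher and 1 lower (0.491% and 0.0981% of all genes) while DESeq2 called 1 and 3 (1.79% and 1.04%). The member median shrank to -0.25 in edgeR and -0.24 in DESeq2, and 13 of 39 differences lay above 0 in each. Lig1 (0.076), Gins2 (0.36) and Ccnd1 (0.047) changed sign by that measure. At cytosines listed in all 12 libraries 13 members could be tested, and 9 were lower and 1 higher, where 39.5% of 850 genes were lower and 28.7% higher. In the same libraries the smooth muscle actin Acta2 (2.85) was called higher and Olig2, of the oligodendrocyte lineage, lower (-1.02). The study's own RNA-seq of total mRNA, tested on read counts and not on coverage, reported only a few differential genes between HF and MF. All had mild fold changes. Acta2 was among them, as lower in HF, and no member was, so the 9 lower members have no counterpart there. The 3 of 6 fibroblast or pericyte markers that could be tested were all above MF. Of 6 tested markers of neural stem cells themselves, Msi1 (2.39) was called higher and Fabp7 (-1.24) lower, and Nes (0.05) and Vim (0.04) were not called. Their part in the result was not tested.

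Levels of m5C in these mRNAs were low nearly everywhere. Of 14399 member cytosines with a coverage of at least 20 in LF replicate 1, 1 had a level of at least 0.1 with at least 6 methylated reads (0.00694%, Wilson 95% interval 0.00123% to 0.0393%). Across the 10 libraries outside labelled HF this share ran from 0 of 15435 in MF replicate 2, which allows up to 0.0249% by the same interval, to 0.0713% (4 of 5607) in pHF replicate 2. In labelled HF it was 0.192% and 0.174%, against 0.314% and 0.287% over all genes in those libraries. The same share over all genes ran from 0.0675% to 0.496%. Such intervals cover counting error only, since reads of the same molecule are not independent.

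Altogether 48 member cytosines passed in at least 1 library and 21 in both replicates of a group. By the same rule 6462 cytosines passed in both replicates of a group over all positions, within genes or outside them. The study's further filters on signal to noise, adjusted p-value and RNA structure were not applied. Of these 21, 19 passed in labelled HF and the other 2, both in Ccnd1, passed in pLF and in pMF. None passed in both replicates of LF, MF or pHF.

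The Ccnd1 pair lies 2 bases apart in the 3′ UTR, in exon 5 of 5 on the minus strand of chromosome 7 (mm10, GENCODE vM21). The sequences are shown because these were the only member cytosines that passed in both replicates of a polysome group; the measured cytosine is in capitals at base 11 of 21, 5′ to 3′ along the mRNA.
Ccnd1 chr7:144931128: gcttgactttCccaacccaat
Ccnd1 chr7:144931126: ttgactttccCaacccaattg

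At the first cytosine the level was 1.14% and 0.941% (LF), 1.14% and 1.39% (MF), 1.99% and 1.56% (labelled HF), 55.4% and 39.9% (pLF), 13.8% and 17.2% (pMF), and 29.7% and 5.75% (pHF). At the second it was 1.14% and 0.704% (LF), 1.13% and 1.55% (MF), 1.46% and 0.929% (labelled HF), 42.5% and 23.1% (pLF), 11.4% and 11.7% (pMF), and 19.2% and 2.87% (pHF). Every polysome library lay above every total mRNA library at both positions. Coverage there was 181 to 824 reads. The 18 other listed cytosines of a 65-base window around the pair stayed at or under 3.85% in every library, and the 6 within 10 bases at or under 2.12%.

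Over both replicates the level was 46.1% in pLF against 1.04% in LF at the first cytosine and 30.8% against 0.925% at the second, and 16.3% in pMF against 1.29% in MF and 11.6% against 1.39%. A cytosine entered these comparisons by passing in both replicates of either group, and the pair did so through pLF and pMF, so the direction was fixed by that choice and the values are a description. Fisher's exact test called 65.0% and 53.6% of all cytosines chosen in this way, and nothing is read from its call of the pair. The pHF and labelled HF levels were not tested against each other at the pair, which passed in both replicates of neither group.

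Between pLF and pMF both cytosines were called by Fisher's exact test, where 9.68% of all cytosines were. The pLF replicates lay above the pMF replicates at both. With the spread between replicates in the fit, limma gave log2 odds differences of 2.30 ± 0.51 and 1.84 ± 0.57 (unadjusted p = 0.00465 and 0.0199), which did not pass after adjustment over 1074 cytosines (adjusted p = 0.213 for each). Limma called none of the 1074. For pHF against pMF neither test called them (9.10% of all cytosines were called by Fisher's exact test), and the pHF replicates themselves differed from 29.7% to 5.75%.

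**Figure D4:**
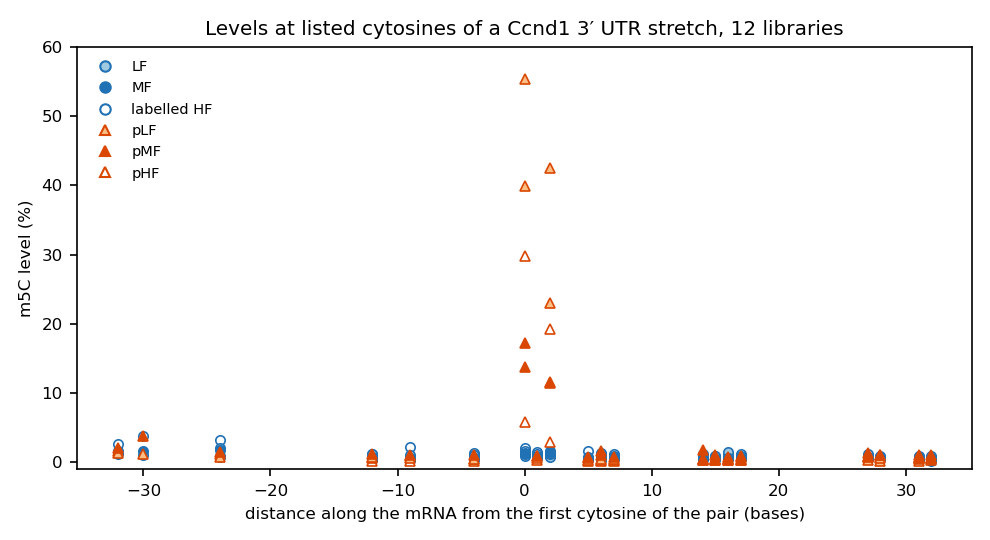
m5C level (%) at 20 listed cytosines of a 65-base stretch of the Ccnd1 3′ UTR, by distance in bases from the first cytosine of the pair; circles are total and triangles polysome libraries, 1 point a library. The pair at 0 and 2 bases reaches 55.4% and 42.5% in polysomes, and every other point is at or under 3.85%.

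The 19 cytosines of labelled HF lay in 16 genes and had labelled HF levels of 11.0% to 65.8%. In the other 10 libraries the same cytosines, where listed, were at or under 4.82%. Of the 19, 15 followed directly after GGG, whereas 1.80% and 1.95% of member cytosines in these 2 libraries did. Over all passing member cytosines 20 of 28 and 16 of 23 followed GGG in the labelled HF libraries and 0 or 1 in each other library.

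For that context 7 of them are shown, in the order of their pooled level, with the cytosine in capitals at base 11.
Rfc2 chr5:134598271: ggacatggggCatgctgggaa
Cdk6 chr5:3344525: gtgaggagggCatgccgctct
Pole chr5:110334245: aggaagggggCcagccagttc
Pola1 chrX:93603266: gtaaaaggggCagatgatgaa
Cdkn1a chr17:29100650: cgagaagggaCagcaccctgc
Mki67 chr7:135697950: cagcaaggggCacatgaggaa
Mcm7 chr5:138168875: ctcaggggggCggctgtacct

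The Rfc2 cytosine, in the 3′ UTR of exon 11 of 11, had 48.1% and 29.0% in labelled HF and was listed nowhere else. The Cdk6 cytosine, in coding exon 2 of 8, had 20.5% and 27.2%, and the Pole cytosine, in coding exon 44 of 49, had 14.6% and 11.0%; neither was listed elsewhere. These 3 were not listed in MF or pMF, so no comparison with MF could be made at them.

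In coding exon 10 of 37 of Pola1 the levels were 27.8% and 13.6%, against 2.94% in LF replicate 2. The Cdkn1a cytosine, in the 3′ UTR of exon 3 of 3 and the only one of the 7 not after GGG, had 15.9% and 45.2%, against at most 3.85% in the 4 other libraries that listed it. Mki67, in coding exon 12 of 14, had 36.1% and 15.3%, against 0.152% in LF replicate 1 and 0.270% in MF replicate 2. Mcm7, in coding exon 6 of 15, had 18.3% and 14.0%, against at most 1.16% in 4 other libraries.

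Among those not shown, the 2 of deepest coverage were chosen after their values were seen. A cytosine in coding exon 2 of 8 of Cdk4 (chr10:127064379) had 14.0% and 15.3% in labelled HF at a coverage of 4858 and 3661, and 0.0243% to 0.125% in the 10 other libraries at 4064 to 15950 reads. A cytosine in coding exon 2 of 5 of Ccnd1 (chr7:144937990) had 34.9% and 24.3%, against 0.0164% to 0.263% elsewhere. For labelled HF against MF 8 member cytosines could be set side by side and for pHF against labelled HF 5, all chosen through labelled HF, so that their difference was built in. All were called by Fisher's exact test, as were 94.3% and 65.3% of all cytosines so chosen, and nothing is read from these calls. No member cytosine could be tested for LF against MF, where 0.760% of all cytosines were called.

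The unconverted share of reads at member cytosines after GGG was 0.905% and 0.823% (labelled HF), against 0.159% and 0.157% at their other member cytosines. In the 10 other libraries the share after GGG was 0.0955% to 0.145%, close to the 0.0959% to 0.163% at other positions. Over all genes, 49.6% and 51.3% of the passing cytosines of labelled HF followed GGG, against 2.22% to 3.64% in the other libraries. The level signal of labelled HF thus ran with sequence context in the members as in all genes, and its source was not tested.

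**Figure D5:**
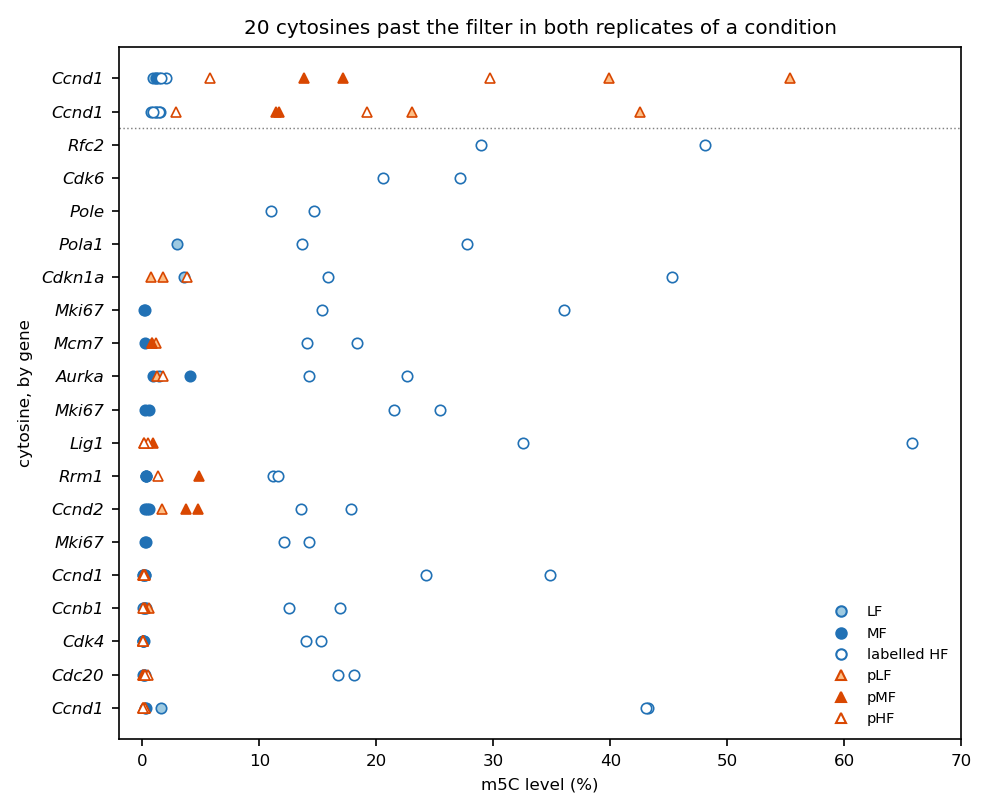
m5C level (%) of 20 member cytosines that passed in both replicates of a group, 1 row a cytosine and 1 point a library that lists it; rows run by pooled level under the Ccnd1 pair. Above the dotted line the polysome triangles run from 2.87% to 55.4%. Under it the open circles of labelled HF stand at 11.0% to 65.8% with all other points at or under 4.82%.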

How the data were processed

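RNA BS-seq libraries of adult mouse neural stem cells were analysed, 2 replicates in each of 6 groups. Per the study's methods, the authors trimmed reads with fastp, aligned them with meRanGh and called cytosines with meRanCall. The submitters' processing notes name R 4.1.1 and mm10. The deposited lists give, for each cytosine covered by at least 10 reads with at least 1 unconverted, the read counts (coverage and unconverted reads) and the level as a fraction. A position without unconverted reads is therefore missing, and coverage medians are taken over what was listed. Listed cytosines numbered 797260 to 2071190 a library, with a summed coverage of 1250056192 to 3018859494. Positions listed as variants, or whose reference base was not C, were left out. At the positions kept, reads with another base were not counted in the level.

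Groups were taken from the labels. The median coverage over cytosines with a level under 0.05 was computed per gene and library, for genes with at least 10 such cytosines in every library. Its log2 was centred on the library's median gene and tested with limma 3.58.1 in R 4.3.3 over all 7135 genes, with Benjamini-Hochberg adjustment and a threshold of 0.05. A fold below refers to this centred scale. Unconverted reads summed per gene were tested with edgeR 4.0.16 (quasi-likelihood) and DESeq2 1.42.0 as alternatives. Levels at cytosines covered by at least 20 reads were tested by Fisher's exact test, with both replicates' reads summed, and by limma on the log odds (pseudocount 0.5). A cytosine passed where its level reached 0.1 and it had 6 or more methylated reads. Exons were those of GENCODE vM21, and sequence contexts were those of the lists, on mm10. Python 3.11.15, pandas 2.3.3, numpy 2.4.6, scipy 1.17.1 and matplotlib 3.10.9 did the rest. The scripts were tested on simulated data with 200 changed genes. For LF against MF the coverage test recovered 4.8% of genes changed by a log2 of 1 and 42.6% of those changed by 2. For pMF against MF it recovered 4.8% and 44.8%, and for polysome against total mRNA over the 3 folate levels 38.4% and 82.6%.

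Members, gene lists and tests were chosen with earlier results of these data known. Values in every library are given for the called members of largest difference (at most 10 over the 3 folate levels, at most 5 elsewhere, and the 3 largest without overlap where fewer than 3 were called) and for the 3 members of highest and lowest coverage. At most 10 cytosines, by pooled level, are named with their sequence, and at most 5 genes of the wider list in a comparison. The limma p-values for coverage rest on a spread shared over the 6 groups of 2 replicates, apart from fits of fewer libraries. Whether replicates came from separate animals is not stated, so that spread may be technical in part. Fisher's exact test sums the reads of both replicates, and its p-values hold no spread between them. Alternatives were cytosine filters, normalization, other tools, single libraries left out, the last 1000 exonic bases and a replicate block. Same-numbered replicates did not deviate together (correlations of -0.04 to 0.04), and the numbers were not used to pair samples. A weak effect of a shared culture could be hidden by library noise, so pairing is not settled by these values. Every column of per-sample values was mapped to a sample. The values of 1 member cytosine are not reported here.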

Additional observations from a re-analysis of the deposited data

How the results depend on the processing

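The lists hold only positions with an unconverted read, so depth decides which positions exist, and 2 libraries a group limit every folate comparison. Of 1129 values of single genes under an alternative, 801 kept their direction and side of the threshold, 275 kept the direction but did not pass, and 53 turned sign. Of 291 counts of members, 229 stayed within 1.5 times. The cause of each change below was not tested.

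Leaving out 1 library in turn gave 11 to 19 called members for polysome against total mRNA over the 3 folate levels, 0 to 5 for pLF against LF, 1 to 8 for pMF against MF, 3 to 12 for pHF against labelled HF and 0 to 9 for labelled HF against MF. The shares of all genes called in these coverage fits are not given here. The ranges therefore say only how far the counts moved. For levels the range was 9 to 14 between polysome and total mRNA, where 14 came without pHF replicate 2, and 10 to 13 between folate concentrations. These level counts rest largely on cytosines chosen through labelled HF or a polysome group, whose difference was built in. Nothing is read from them. For the share in the last 1000 exonic bases it was 3 to 7, where 7.57% to 15.2% of all genes were higher and 0.401% to 1.00% lower. Outside exons it was 3 to 5, where 75.4% to 79.9% of all genes were lower. LF against MF, pLF against pMF, pHF against pMF and the change of the polysome difference from MF to LF gave 0 without any library.

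At cytosines listed in all 12 libraries 9 of 13 members were called for pLF against LF (8 by edgeR) and 10 of 13 for pMF against MF, where 63.5% (61.9% by edgeR) and 64.5% of all 850 genes were. Of 39 members, by unconverted reads 10 (edgeR) and 12 (DESeq2) were called for pLF against LF (22.2% and 27.8% of all genes), 10 and 10 for pMF against MF (22.7% and 28.3%), and 2 and 4 for labelled HF against MF (0.589% and 2.83%). With no limit on the level, 7 were called for pHF against labelled HF (10.01% of all genes) and 2 for labelled HF against MF (3.84%). With at least 30 cytosines per gene, 3 of 34 were called for pLF against LF (15.3%). Fitted alone, the libraries of pLF against LF gave 0 (0% of all genes) and those of pHF against labelled HF 1 (1.63%). Within the last 1000 exonic bases, where 29 members and 4674 genes were tested, 10 were called over the 3 folate levels (30.5% of all genes), 3 for pLF against LF (9.76%) and 5 for pHF against labelled HF (16.6%), and by unconverted reads there 8 over the 3 folate levels (16.6%), 3 for pMF against MF (3.25%), 1 for pHF against labelled HF (4.09%) and 0 for labelled HF against MF (0.257%). With the replicate number as a block, 3 were called for pLF against LF (11.6%), and whether the numbers pair the samples is not known. At a level of at least 0.2, 9 member cytosines passed in both replicates of a group, 5 were called between polysome and total mRNA and 4 between folate concentrations. With a pseudocount of 5, 2 members differed in the share outside exons.

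Over the 3 folate levels the sign turned for Ccnd1 (-0.44 and, by edgeR, -0.38 at cytosines in all 12 libraries, -0.27 and -0.24 by unconverted reads in edgeR and DESeq2, -0.30 and -0.12 in the last 1000 bases by coverage and unconverted reads), Cdkn1a (-0.49 and -0.43 at cytosines in all 12 libraries), Ccnb2 (0.44 and 0.47 by unconverted reads), Cdkn1b (-8.4e-04, edgeR), and, in the last 1000 bases, Rfc4 (-0.047 and -0.10), Pcna (-0.26) and Ccnd2 (0.094). In pLF against LF it turned for Pcna (-0.087 at cytosines in all 12 libraries, -0.48 and -0.0065 in the last 1000 bases), Mcm4 (0.56) and Ccnd2 (0.18), both in the last 1000 bases. In pMF against MF it turned for Pcna (-0.21 and -0.12 at cytosines in all 12 libraries, -0.60 in the last 1000 bases), and in pHF against labelled HF, in the last 1000 bases, for Rfc4 (-1.11) and Pcna (-0.0072 and -0.16). In LF against MF it turned by unconverted reads for Gins2 (0.58 and 0.59), Fen1 (-0.14 and -0.13, and -0.14 in the last 1000 bases) and Rrm1 (0.046 and 0.057, and 0.077 and 0.075 at cytosines in all 12 libraries). In labelled HF against MF it turned by unconverted reads for Lig1 (0.076 and 0.082, and 0.75 in the last 1000 bases), Gins2 (0.36 and 0.37) and Ccnd1 (0.047 and 0.052, and 0.19 in the last 1000 bases). On polysomes it turned by unconverted reads for Aurkb in pLF against pMF (1.20 and 1.18, and 0.78 in the last 1000 bases) and in pHF against pMF (0.51 and 0.54, and 0.70), for Rfc4 in pHF against pMF (-1.43 and -1.39, and -1.72) and, in the last 1000 bases, for Mcm4 in pLF against pMF (0.64).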
